A study of Mus musculus with 29 samples.

Results

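Tumours were compared with non-tumour liver in mice fed alcohol and labelled IL17RA-/-, gene by gene over the whole transcriptome. The tumour group had 4 RNA-seq libraries (replicates 4 to 7) and the non-tumour group had 5 (replicates 1 to 5). All 9 libraries carried the genotype label IL17RA-/-, the treatment label HFD_alcohol and the injury model label DEN. DEN, diethylnitrosamine, is a liver carcinogen, given here at 25 mg/kg by intraperitoneal injection to C57BL/6 mice aged 2 weeks, before 18 weeks of feeding. The series text describes a liquid ethanol diet matched for calories or pair-feeding, while the sample labels read HFD_alcohol or HFD, and the groups are called alcohol and HFD here. Values are CPM, read counts scaled to the same total in every library. Genes that reached 1 CPM in 3 or more of the 9 libraries were taken, which left 12844 of the 22187 gene IDs listed. Another 3 tumour and 5 non-tumour WT libraries on alcohol, and 3 and 3 libraries labelled IL17RA-/- on HFD, served only to ask whether the contrast differed there. The labels tie no library to an animal, and the p-values therefore measure how much these libraries vary, which may be in part technical.

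Hepatocytes differ along the liver lobule: those near the portal vein make urea and glucose, and those near the central vein, under Wnt signalling, take up ammonia and oxidise drugs and ethanol. Liver tumours that grow out of DEN-exposed hepatocytes usually carry mutations that activate the Ras and MAP kinase pathway, re-express genes of the fetal liver, and lose part of the adult metabolic program. IL-17 receptor A is the shared receptor subunit through which IL-17A induces chemokines and acute phase genes in hepatocytes and macrophages.

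Il17ra (ENSMUSG00000002897, chromosome 6, 120463247 to 120487559, GRCm38), the gene named in the genotype label, was at 48.4, 55.8, 42.4 and 55.1 CPM in tumour replicates 4 to 7 and at 30.8, 20.1, 36.97, 15.9 and 26.9 CPM in non-tumour replicates 1 to 5. It was thus detected in every library, and every tumour lay above every non-tumour library. The log2 fold change was 0.97 ± 0.25 (SE; limma, Benjamini-Hochberg adjusted p = 0.00326), and it was 0.66 with an adjusted p of 0.0554 when non-tumour replicates 2 and 4 were left out. Which exons the allele lacks is not stated. A value per gene does not show the loss of part of a transcript, so the genotype is given as labelled. Of the 10 tested genes for IL-17 receptors and adaptors 2 rose and none fell, where 22.2% of all tested genes rose and 19.2% fell (after median-ratio rescaling, 4 rose and 1 fell). The other gene that rose was Il17rd, a receptor family member that dampens fibroblast growth factor signalling, at 3.78, 2.42, 3.99 and 3.73 CPM in tumours and 1.76, 1.12, 1.78, 0.843 and 0.690 CPM in non-tumour liver (log2 fold change 1.02 ± 0.22, adjusted p = 0.000745). The remaining 8 were not called, with log2 differences from -0.28 for Traf6, a signalling adaptor, to 0.67 for Il17rb, the IL-25 receptor.

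Recovered depth was 3213697 to 8024008 counts per tumour library, lowest in replicate 7, and 5795338 to 7169453 per non-tumour library, so that 3 counts stood for 0.374 to 0.934 CPM. The 10 most abundant genes held 23.5% to 28.7% of the counts in tumours and 14.6% to 17.4% in non-tumour liver. A principal component holding 58.9% of the variance over these 9 libraries separated tumours from non-tumour liver. Some libraries stood apart within their group. A second component (15.5%) set non-tumour replicates 2 and 4 apart from replicates 1, 3 and 5, and these 2 libraries carried the highest male-biased and the lowest Kupffer cell and cell cycle levels of their group. Non-tumour replicate 5 had the highest level of several tumour markers in its group, and tumour replicate 5 had high levels of pericentral Wnt genes. Values without these libraries are given, for the genes named, beside the calls that were lost or gained. Fold changes that moved by more than 1.5 times without them are given for many of these genes but not for all. Those of Lgr5, Nkd1 and Hamp moved as far and are not given. In bulk tissue, fewer cells of a type and less RNA per cell cannot be told apart.

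Of the 12844 genes, 5317 (41.4%) were called at an adjusted p under 0.05, and all adjusted p-values below come from this limma fit, with ± after a fold change as its SE. In tumours 2850 genes rose (22.2%) and 2467 fell (19.2%). A difference of at least 1 on the log2 scale was seen in 1155 of the genes that rose and 766 of those that fell, and of at least 3 in 91 and 63. The groups did not overlap for 1980 genes higher in tumours (15.4%) and 1951 lower in tumours (15.2%). The median log2 fold change over all tested genes was 0.0642, the value against which the medians of gene lists below are to be read. A gene list is described by how many of its tested members were called and by its median, with no test of the list. Counts of called members are to be read against the 22.2% of all tested genes that rose and the 19.2% that fell. Counts given for other settings have another background. Without non-tumour replicates 2 and 4, 1870 of the 12844 genes rose and 2406 fell, and without tumour replicate 5, 2541 rose and 2151 fell. Of the tested genes, 179 were under 1 CPM in every non-tumour library and 72 were under 1 CPM in every tumour, so that they entered only through the group where they were higher.

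Fetal liver and tumour marker genes were among the most raised genes. Of 16 tested markers 14 rose, against 22.2% of all tested genes, none fell, and the median log2 fold change was 2.90. Gpc3, a heparan sulphate proteoglycan of fetal liver used as a marker of hepatocellular carcinoma (chromosome X, 52272426 to 52613950), was at 143, 210.3, 198 and 232 CPM in tumours and 1.92, 1.26, 1.63, 6.04 and 27.8 CPM in non-tumour liver. All 4 tumours were high, and among non-tumour libraries replicate 5 stood above the other 4 (log2 fold change 5.24 ± 0.94, adjusted p = 9.88e-05; 5.87 without non-tumour replicate 5). Afp, alpha-fetoprotein, the main fetal serum protein (chromosome 5, 90490737 to 90508907), was at 105, 486, 146 and 559 CPM in tumours and 3.53, 0.976, 8.02, 7.59 and 32.4 CPM in non-tumour liver. The groups did not overlap, tumour replicates 5 and 7 had the highest levels, and non-tumour replicate 5 was again the highest of its group (log2 fold change 5.10 ± 1.02, adjusted p = 0.000308). Akr1c18, a hydroxysteroid dehydrogenase (chromosome 13, 4132615 to 4150654), was at 134, 230.3, 193 and 143 CPM in tumours and 2.41, 0.139, 3.86, 5.90 and 18.5 CPM in non-tumour liver, with the same library highest in non-tumour liver (log2 fold change 5.16 ± 0.91, adjusted p = 7.57e-05). Whether tumour tissue in non-tumour replicate 5 had a part in its levels was not tested.

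Prom1, a membrane glycoprotein of progenitor cells, was at 28.1, 62.6, 57.95 and 52.9 CPM in tumours and 2.41, 0.837, 2.52, 2.25 and 3.80 CPM in non-tumour liver (log2 fold change 3.94 ± 0.52, adjusted p = 2.29e-06). Golm1, the Golgi protein GP73, was at 83.1, 117, 143 and 105 CPM in tumours and 12.2, 3.21, 14.3, 5.48 and 17.8 CPM in non-tumour liver (log2 fold change 3.47 ± 0.43, adjusted p = 1.3e-06; 2.84 without non-tumour replicates 2 and 4). Neither gene overlapped between groups. Spink1, a trypsin inhibitor, varied among tumours, with 21.5, 6.62, 49.5 and 34.2 CPM there and 0.481, 0.418, 0.594, 0.141 and 3.62 CPM in non-tumour liver (log2 fold change 3.73 ± 0.64, adjusted p = 6.37e-05). Igf2bp3, an RNA-binding protein of fetal tissue, was at 1.27, 11.98, 5.26 and 5.61 CPM in tumours and 1.04, 0.349, 0.187, 0.509 and 1.35 CPM in non-tumour liver. Tumour replicate 4 lay at the level of non-tumour replicate 5, so these groups overlapped although the gene was called (log2 fold change 1.86 ± 0.40, adjusted p = 0.000685). The 2 markers not called were Rbm3 and Tff3, a trefoil peptide at 3.29, 27.4, 32.03 and 94.9 CPM in tumours and 2.08, 4.18, 0.445, 10.97 and 18.1 CPM in non-tumour liver (adjusted p = 0.0516). The other 7 markers rose, Ly6d, Scd2, Bex1, Spp1, Cd24a, Sox9 and Epcam, with log2 fold changes of 3.80, 3.14, 2.67, 1.97, 1.84, 1.65 and 1.20. Ly6d was at 2.22 and Spp1 lost its call (1.42, adjusted p = 0.0579) without non-tumour replicates 2 and 4, and Epcam lost its call without tumour replicate 7 (0.86, adjusted p = 0.0623). Bex1 was under 1 CPM in every non-tumour library and entered only through the tumours. Without tumour replicate 4, non-tumour replicate 4 or non-tumour replicate 5 Tff3 was called too, at 3.01, 2.44 and 2.61 on the log2 scale. Of 8 tested imprinted growth genes, 3 rose and none fell (median 0.89; 1 rose, median 0.54, without non-tumour replicates 2 and 4). Grb10, an adaptor that restrains insulin and IGF receptor signalling, was at 37.8, 56.6, 37.1 and 46.99 CPM in tumours and 14.4, 9.90, 14.8, 11.1 and 10.2 CPM in non-tumour liver (log2 fold change 1.80 ± 0.32, adjusted p = 9.69e-05), while the calls of Mest and Peg10 were lost without non-tumour replicates 2 and 4 (0.60 and 1.31, adjusted p = 0.131 and 0.0557), and that of Peg10 also without tumour replicate 5 (1.12, adjusted p = 0.0606). The other 5, Sgce, Plagl1, Cdkn1c, Peg3 and Igf2r, were not called, at log2 differences of 1.04, 0.79, 0.54, 0.52 and 0.14, although Sgce was called without tumour replicate 4 (1.64, adjusted p = 0.00449) or non-tumour replicate 1 (1.26, adjusted p = 0.0493), and Igf2r without tumour replicate 4 (0.75, adjusted p = 0.00196).

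**Figure D1:**
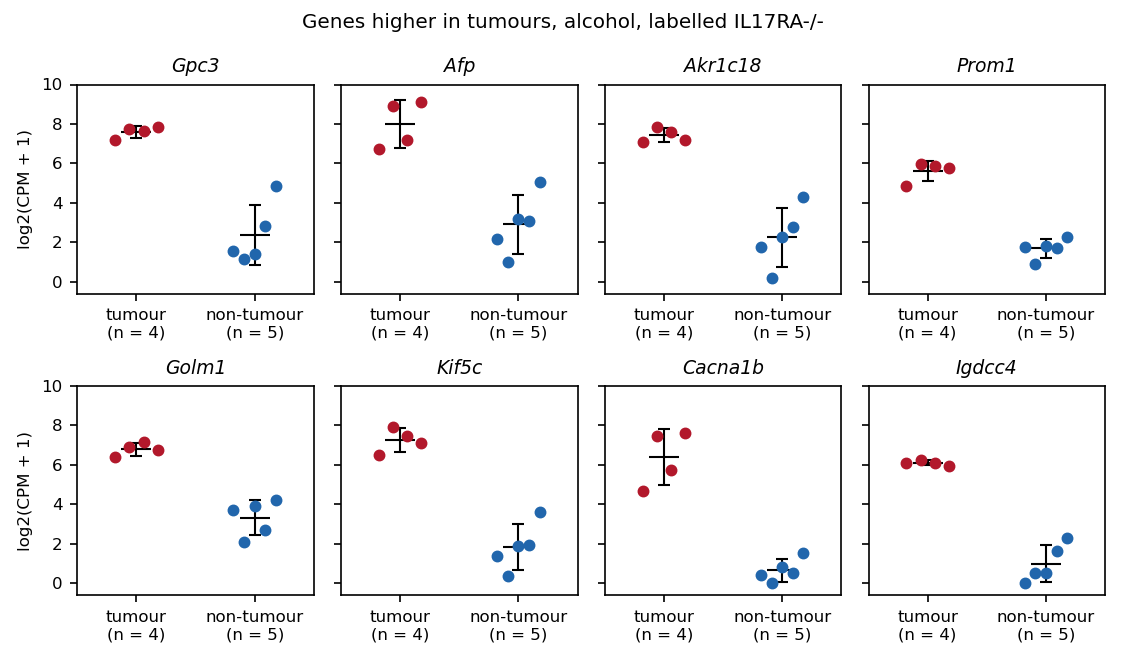
Levels of 8 genes higher in tumours, as log2(CPM + 1) on the vertical axis, in 4 tumour libraries (red, left) and 5 non-tumour libraries (blue, right) fed alcohol and labelled IL17RA-/-. Points are libraries, horizontal lines the mean and bars the SD; no tumour point lies at or below a non-tumour point of the same gene.

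The 12 largest rises among genes without overlap included Gpc3, Akr1c18 and Afp and 9 genes outside the marker list. Cacna1b, the pore-forming subunit of the N-type calcium channel (chromosome 2, 24603887 to 24763152), was at 24.5, 177, 52.7 and 195 CPM in tumours and 0.321, 0, 0.742, 0.422 and 1.90 CPM in non-tumour liver. It had the largest log2 fold change of the 12, and as for Afp tumour replicates 5 and 7 were the highest (log2 fold change 5.73 ± 0.82, adjusted p = 6.26e-06). Kif5c, a kinesin heavy chain (chromosome 2, 49619298 to 49774778), was at 90.9, 241, 176 and 139 CPM in tumours and 1.60, 0.279, 2.67, 2.81 and 11.2 CPM in non-tumour liver (log2 fold change 5.43 ± 0.87, adjusted p = 2.44e-05). Igdcc4, an immunoglobulin superfamily receptor (chromosome 9, 65101486 to 65137940), was even across tumours at 68.4, 75.7, 67.4 and 60.4 CPM and at 0, 0.418, 0.445, 2.11 and 3.97 CPM in non-tumour liver, near or under the level of 3 counts in non-tumour replicates 1 to 3 (log2 fold change 5.11 ± 0.65, adjusted p = 1.7e-06). Rasal1, a GTPase-activating protein for Ras, was as even, at 25.99, 29.5, 27.5 and 26.4 CPM in tumours and 0.481, 0.279, 0.445, 0.141 and 1.38 CPM in non-tumour liver (log2 fold change 4.25 ± 0.42, adjusted p = 7.95e-08). Hid1, which acts in dense-core vesicle formation, was at 57.2, 60.5, 63.7 and 57.3 CPM in tumours and 1.44, 0.976, 1.48, 1.97 and 6.21 CPM in non-tumour liver (log2 fold change 4.32 ± 0.37, adjusted p = 2.41e-08). Gldn, Thsd4, Sgsm1 and Gria3, an AMPA receptor subunit, complete the 12 largest rises, with log2 fold changes of 4.67, 4.29, 4.26 and 4.19 and no overlap between groups.

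Cell cycle genes rose in tumours. Of 39 tested genes, 27 rose and none fell (median 1.50). Mki67, the proliferation marker Ki-67, was at 76.97, 97.96, 98.7 and 222 CPM in tumours and 33.5, 5.72, 41.1, 10.5 and 42.8 CPM in non-tumour liver (log2 fold change 2.39 ± 0.52, adjusted p = 0.000769). Tumour replicate 7 was the highest, and non-tumour replicates 2 and 4 the lowest. Cenpf, a kinetochore protein, was at 19.1, 26.6, 33.5 and 67.5 CPM in tumours and 7.22, 0.558, 10.1, 2.53 and 10.7 CPM in non-tumour liver (log2 fold change 2.58 ± 0.54, adjusted p = 0.000527; 1.73 without non-tumour replicates 2 and 4). Plk1, a mitotic kinase, was at 4.11, 9.52, 5.98 and 7.78 CPM in tumours and 1.44, 0, 1.48, 0.281 and 0.690 CPM in non-tumour liver (log2 fold change 2.18 ± 0.37, adjusted p = 4.46e-05). Ccnd1, cyclin D1 of the G1 phase, was at 175, 132, 140.3 and 117 CPM in tumours and 37.4, 24.6, 43.1, 12.7 and 43.3 CPM in non-tumour liver (log2 fold change 2.20 ± 0.33, adjusted p = 1.07e-05). None of these 4 genes overlapped between groups. The members not called were mostly genes of DNA replication: Pcna, the polymerase clamp, was at 31.3, 19.7, 27.1 and 44.4 CPM in tumours and 34.5, 23.7, 41.2, 32.6 and 34.8 CPM in non-tumour liver (adjusted p = 0.54). Mcm3, Mcm7 and Tyms had log2 fold changes of 0.41, 0.23 and 0.16 (adjusted p = 0.359, 0.497 and 0.651). Without non-tumour replicates 2 and 4, 12 of the 39 genes rose (median 0.83), and Mki67 was at 1.52 (adjusted p = 0.018).

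The promoters of the cell cycle genes were searched for the cell cycle homology region letters TTTGAA, the core through which the MuvB complex silences late cell cycle genes in resting cells. The RefSeq promoter table (GRCm38.p6, 250 bases before to 50 after the start, both strands searched) held 31 of the 39 genes. The letters occurred in 15 of the 22 called genes and in 0 of the 9 that were not called, against 17.9% of all 32851 promoters and 14.8% of 9990 tested genes. Most of these 9 are genes of DNA replication, so the split also divides kinds of cell cycle gene. It is the split of the fit with all libraries, and fewer genes were called without non-tumour replicates 2 and 4. The 4 promoters shown carry the letters near the start of genes called here, printed 5′ to 3′ on the gene's strand with the letters in capitals. A match is a description of these windows, not of binding.
Plk1 (chr7:122159185-122159484, plus strand): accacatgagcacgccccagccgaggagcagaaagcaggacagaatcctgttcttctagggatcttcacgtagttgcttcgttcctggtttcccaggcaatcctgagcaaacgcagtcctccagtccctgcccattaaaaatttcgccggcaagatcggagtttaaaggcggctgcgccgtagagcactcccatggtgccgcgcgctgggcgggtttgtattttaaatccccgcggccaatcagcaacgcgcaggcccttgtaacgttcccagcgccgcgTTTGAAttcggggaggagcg
Ccnb2 (chr9:70421505-70421804, minus strand): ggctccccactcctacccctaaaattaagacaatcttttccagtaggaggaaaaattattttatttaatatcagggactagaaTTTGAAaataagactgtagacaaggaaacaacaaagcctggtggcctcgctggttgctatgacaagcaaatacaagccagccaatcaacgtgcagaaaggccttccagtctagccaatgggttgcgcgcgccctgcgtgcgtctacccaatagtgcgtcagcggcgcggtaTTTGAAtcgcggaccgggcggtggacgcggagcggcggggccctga
Cdc20 (chr4:118437294-118437593, minus strand): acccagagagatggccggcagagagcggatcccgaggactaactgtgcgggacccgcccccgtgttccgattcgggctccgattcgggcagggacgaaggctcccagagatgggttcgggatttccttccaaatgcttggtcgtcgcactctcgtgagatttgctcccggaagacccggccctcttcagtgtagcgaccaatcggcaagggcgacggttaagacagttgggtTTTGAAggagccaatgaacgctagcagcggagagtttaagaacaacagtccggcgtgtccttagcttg
Cenpf (chr1:189688037-189688336, minus strand): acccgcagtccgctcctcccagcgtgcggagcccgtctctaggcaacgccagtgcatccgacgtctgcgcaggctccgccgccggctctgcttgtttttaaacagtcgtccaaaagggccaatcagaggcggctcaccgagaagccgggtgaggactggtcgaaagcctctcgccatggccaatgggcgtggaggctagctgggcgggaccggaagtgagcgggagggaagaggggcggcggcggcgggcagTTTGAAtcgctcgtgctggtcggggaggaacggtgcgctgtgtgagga
The letters lay just after the start site in Plk1 and Cenpf, on both sides of it in Ccnb2 and before it in Cdc20. Ccnb2, cyclin B2, was at 9.54, 11.8, 9.60 and 12.8 CPM in tumours and 4.49, 1.12, 4.90, 1.12 and 4.83 CPM in non-tumour liver (log2 fold change 1.62 ± 0.41, adjusted p = 0.00298). Cdc20, an activator of the anaphase-promoting complex, was at 7.40, 12.6, 9.72 and 21.5 CPM in tumours and 4.49, 0.139, 5.05, 0.703 and 5.87 CPM in non-tumour liver (log2 fold change 1.93 ± 0.51, adjusted p = 0.00365). Both had no overlap between groups, and both calls were lost without non-tumour replicates 2 and 4 (1.04 and 1.08, adjusted p = 0.0588 and 0.0781).

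Feedback inhibitors of MAP kinase signalling, which are induced when the pathway is active, rose in 11 of 14 cases, and none fell (median 1.24). Dusp5 and Dusp4, phosphatases of nuclear ERK, showed the largest changes. Dusp5 was at 35.9, 51.6, 32.3 and 14.6 CPM in tumours and 0.802, 0.558, 2.67, 1.55 and 3.97 CPM in non-tumour liver (log2 fold change 3.58 ± 0.39, adjusted p = 2.91e-07), and Dusp4 was at 39.1, 63.3, 51.97 and 28.01 CPM in tumours and 2.73, 3.77, 5.94, 5.62 and 4.83 CPM in non-tumour liver (log2 fold change 3.04 ± 0.29, adjusted p = 5.61e-08). Dusp6, the cytoplasmic ERK phosphatase, was at 212, 274, 211 and 202 CPM in tumours and 82.9, 83.97, 87.7, 62.6 and 99.05 CPM in non-tumour liver (log2 fold change 1.43 ± 0.16, adjusted p = 3.84e-07). Spred2, a Ras pathway inhibitor, was at 29.1, 40.02, 29.2 and 25.8 CPM in tumours and a nearly constant 8.34, 9.07, 7.13, 7.59 and 7.94 CPM in non-tumour liver (log2 fold change 1.81 ± 0.25, adjusted p = 3.36e-06). Tumour replicate 5 had the highest level of each of the 4 genes, and none overlapped between groups.

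Targets of p53 rose in 12 of 16 cases, and none fell (median 1.15; 10 rose and 1 fell without non-tumour replicates 2 and 4, and 12 rose and 1 fell after rescaling). Cdkn1a, the cell cycle inhibitor p21, was at 29.8, 31.95, 39.1 and 32.7 CPM in tumours and 14.6, 11.4, 6.98, 3.51 and 5.69 CPM in non-tumour liver (log2 fold change 1.99 ± 0.46, adjusted p = 0.00131). Psrc1, a spindle-associated protein, was at 36.3, 24.05, 17.2 and 20.8 CPM in tumours and 0.641, 0, 0.594, 0 and 1.73 CPM in non-tumour liver (log2 fold change 4.06 ± 0.53, adjusted p = 1.94e-06). It was at 0 or near the level of 3 counts in 4 of the 5 non-tumour libraries. Tnfrsf10b, the TRAIL death receptor, was at 11.8, 13.9, 13.7 and 9.65 CPM in tumours and 0.962, 0.279, 2.38, 1.27 and 2.42 CPM in non-tumour liver (log2 fold change 2.51 ± 0.29, adjusted p = 5.85e-07). Mdm2, the ubiquitin ligase of p53, was at 95.7, 82.1, 82.6 and 68.5 CPM in tumours and 33.99, 35.99, 48.5, 41.3 and 54.9 CPM in non-tumour liver (log2 fold change 0.93 ± 0.18, adjusted p = 0.00022). All 4 had no overlap between groups. Immediate early genes, which also respond to tissue handling, rose in 8 of 17 cases and fell in none (median 0.96), and their part in the MAP kinase and p53 lists was not tested. Egr1 was at 144, 85.9, 96.96 and 44.5 CPM in tumours and 4.65, 18.3, 10.2, 4.08 and 11.7 CPM in non-tumour liver (log2 fold change 3.18 ± 0.42, adjusted p = 2.32e-06). Dusp1 was at 29.1, 58.1, 64.1 and 46.4 CPM in tumours and 55.2, 99.2, 59.8, 45.8 and 28.1 CPM in non-tumour liver (adjusted p = 0.712).

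**Figure D2:**
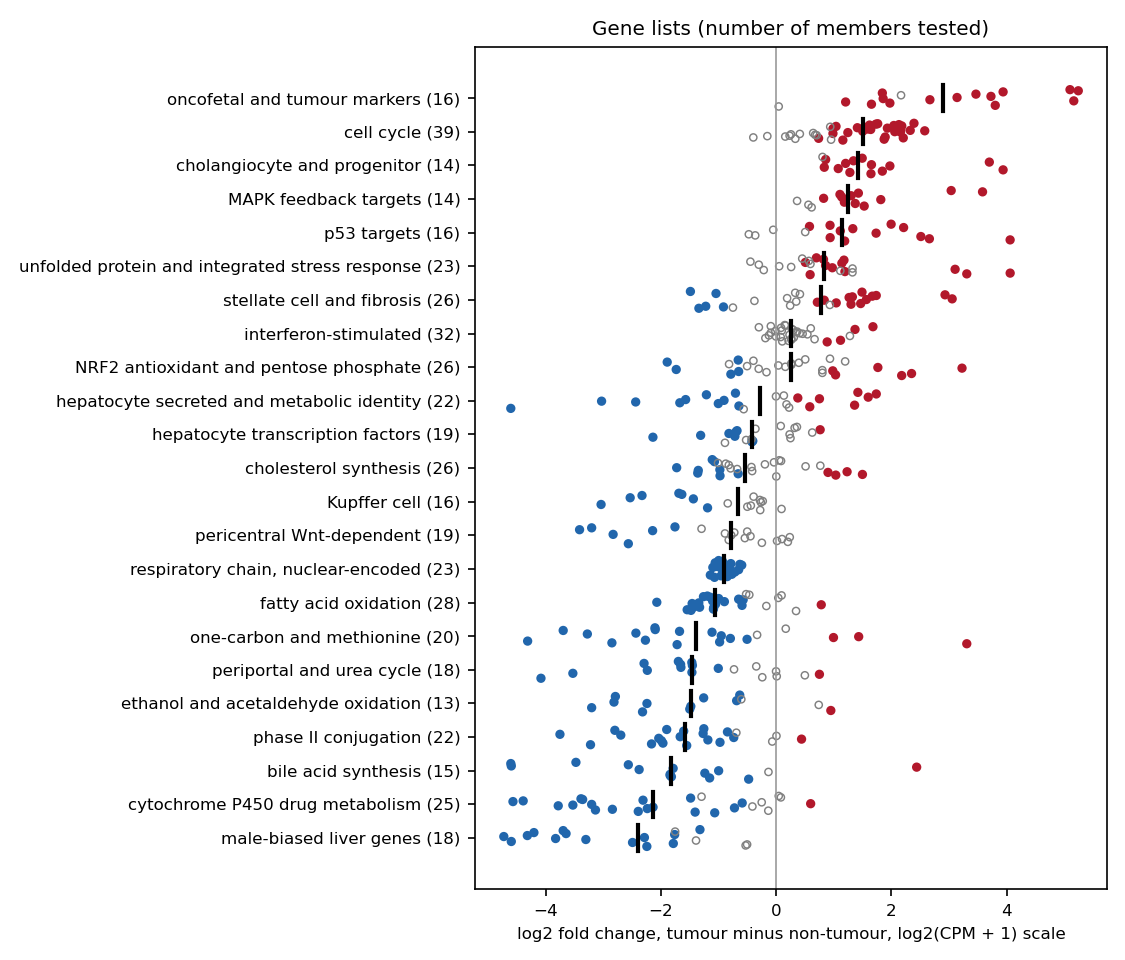
Log2 fold change (tumour minus non-tumour, log2(CPM + 1) scale, horizontal axis) of the tested members of 23 gene lists, with the number of members in brackets. Red points were called higher in tumours, blue points called lower, open points not called, and black bars are list medians, which run from 2.90 for tumour markers to -2.39 for male-biased genes.

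Hepatocyte identity changed unevenly. Of 22 tested secreted and metabolic hepatocyte genes 7 rose and 10 fell (median -0.28). The genes that rose were plasma protein genes. Alb, albumin, was at 100545, 104262, 122357 and 93661 CPM in tumours and 40208, 44575, 34164, 38405 and 39407 CPM in non-tumour liver (log2 fold change 1.42 ± 0.31, adjusted p = 0.000669). Apoa1, the main HDL protein, was at 13791, 11961, 13779.6 and 11014 CPM in tumours and 2929, 5086, 3306, 4273 and 3641 CPM in non-tumour liver (log2 fold change 1.74 ± 0.21, adjusted p = 8.94e-07). Ahsg, fetuin-A, was at 15789, 15745, 14588 and 12767 CPM in tumours and 3637, 5551, 4336, 5125 and 5984 CPM in non-tumour liver (log2 fold change 1.60 ± 0.22, adjusted p = 4.2e-06). None of the 3 overlapped between groups. With no filter on low values Alb kept its fold change but not its call (adjusted p = 0.235). The genes that fell were mostly enzymes of amino acid catabolism. Hpd, which degrades tyrosine, was at 170.1, 112, 114 and 347 CPM in tumours and 1495, 1437, 1065, 1593 and 1287 CPM in non-tumour liver (log2 fold change -3.03 ± 0.40, adjusted p = 2.47e-06).

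Of 19 tested hepatocyte transcription factors, 8 fell and 1 rose (median -0.42). Hnf4a, the nuclear receptor at the head of the hepatocyte program, was at 612, 737, 594 and 688 CPM in tumours and 606, 731, 521, 638 and 626 CPM in non-tumour liver, and the groups overlapped (log2 fold change 0.08 ± 0.12, adjusted p = 0.637). Nr1h4, the bile acid receptor FXR, was at 47.4, 36.6, 47.4 and 54.8 CPM in tumours and 115, 100.4, 127, 102 and 139.6 CPM in non-tumour liver, without overlap (log2 fold change -1.31 ± 0.20, adjusted p = 1.7e-05). The xenobiotic and C/EBP factors were lower as well. Nr1i3, the xenobiotic receptor CAR, was at 31.2, 13.5, 17.2 and 62.5 CPM in tumours and 127, 51.7, 139, 101 and 252 CPM in non-tumour liver, where tumour replicate 7 was above non-tumour replicate 2 (log2 fold change -2.14 ± 0.41, adjusted p = 0.000199). Cebpa, which holds hepatocytes out of the cell cycle, was at 137, 123, 117 and 158 CPM in tumours and 214, 179, 189, 228 and 268 CPM in non-tumour liver (log2 fold change -0.68 ± 0.20, adjusted p = 0.00869). The factor that rose was Foxa3 (log2 fold change 0.76 ± 0.25, adjusted p = 0.015), whose call was lost without tumour replicate 5 (0.67, adjusted p = 0.053) or non-tumour replicate 3 (0.60, adjusted p = 0.0514).

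Periportal genes fell in 11 of 18 cases, and 1, Hsd17b13, rose (median -1.46; 10 fell and none rose without non-tumour replicates 2 and 4). All 5 enzymes of the urea cycle fell. Cps1, its rate-limiting enzyme, was at 1976, 1894, 1463 and 2806 CPM in tumours and 7379, 8085, 4822, 6830.0 and 5590.4 CPM in non-tumour liver (log2 fold change -1.70 ± 0.25, adjusted p = 7.62e-06). Ass1, argininosuccinate synthase, was at 355, 329.7, 285 and 1070.0 CPM in tumours and 2529, 2969, 1456, 2709 and 1504 CPM in non-tumour liver, with tumour replicate 7 well above the other 3 tumours (log2 fold change -2.29 ± 0.34, adjusted p = 1.03e-05). Arg1, arginase, was at 372, 286, 477 and 588 CPM in tumours and 1479, 1502, 897, 1174 and 829.3 CPM in non-tumour liver (log2 fold change -1.46 ± 0.27, adjusted p = 0.000144). For these 3 enzymes the lowest non-tumour level was in replicate 3 or 5. Otc and Asl fell as well, and Etnppl, which degrades phosphoethanolamine, had the largest fall of the list, at 2.96, 6.13, 2.99 and 28.3 CPM in tumours and 104, 183, 94.9, 191 and 97.7 CPM in non-tumour liver (log2 fold change -4.08 ± 0.55, adjusted p = 3.24e-06; -4.73 without tumour replicate 7). None of the genes with values here overlapped between groups.

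Pericentral genes under Wnt control separated tumour replicate 5 from the other 3 tumours. Glul, glutamine synthetase, was at 132, 1879, 174 and 430.3 CPM in tumours and 1297, 1076, 1415, 1139 and 1359 CPM in non-tumour liver. Tumour replicate 5 exceeded every non-tumour library, and replicates 4, 6 and 7 lay below all of them (log2 fold change -1.76 ± 0.52, adjusted p = 0.00935; -1.26, adjusted p = 0.0601, without tumour replicate 4, and -2.54, adjusted p = 6.6e-05, without tumour replicate 5). Slc1a2, a glutamate transporter, was at 26.1, 534, 29.7 and 124 CPM in tumours and 312, 356, 339, 404 and 527 CPM in non-tumour liver (log2 fold change -2.15 ± 0.66, adjusted p = 0.0109; -1.59 and -1.65, adjusted p = 0.0642 and 0.06, without tumour replicate 4 or 6, and -3.02, adjusted p = 0.000259, without tumour replicate 5). Axin2, a direct Wnt target, was at 0.822, 20.3, 1.74 and 4.05 CPM in tumours and 7.54, 8.37, 4.01, 5.34 and 11.7 CPM in non-tumour liver, and Lgr5, an R-spondin receptor, was at 1.97, 24.2, 3.99 and 4.98 CPM in tumours and 9.14, 6.28, 8.76, 13.2 and 7.59 CPM in non-tumour liver. Nkd1, a feedback inhibitor of Wnt signalling, was at 1.15, 32.1, 1.25 and 4.36 CPM in tumours and 4.17, 3.21, 4.01, 3.37 and 5.87 CPM in non-tumour liver. For these 3 genes tumour replicate 5 was again the highest of all 9 libraries, and none was called (adjusted p = 0.29, 0.45 and 0.893). Without tumour replicate 5, Axin2 was called (-1.44, adjusted p = 0.0196).

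Over the whole pericentral list 6 of 19 tested genes fell and none rose (median -0.78), against 11 that fell without tumour replicate 5 (median -1.18). Some pericentral genes were low in tumour replicate 5 too. Cyp2e1, the ethanol-oxidising P450, was at 547, 1055, 347 and 1069.8 CPM in tumours and 7025, 5488, 5632, 6676 and 6711 CPM in non-tumour liver (log2 fold change -3.20 ± 0.40, adjusted p = 1.37e-06). Oat, ornithine aminotransferase, was at 44.2, 325, 54.2 and 295 CPM in tumours and 1409, 1267, 1031, 1649 and 1351 CPM in non-tumour liver (log2 fold change -3.41 ± 0.58, adjusted p = 5.46e-05). Rgn, a calcium-binding lactonase, was at 95.7, 253, 111 and 276 CPM in tumours and 1206, 1083, 1017, 1319 and 1312 CPM in non-tumour liver (log2 fold change -2.83 ± 0.44, adjusted p = 1.85e-05). In all 3 the tumours lay below every non-tumour library, with replicates 5 and 7 above replicates 4 and 6. Rspo3, the Wnt enhancer made by central vein endothelium, was at 2.47, 5.16, 3.99 and 5.60 CPM in tumours and 12.7, 6.56, 13.1, 9.56 and 6.90 CPM in non-tumour liver (log2 fold change -1.01 ± 0.33, adjusted p = 0.0162; -0.82, adjusted p = 0.0685, without tumour replicate 4).

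**Figure D3:**
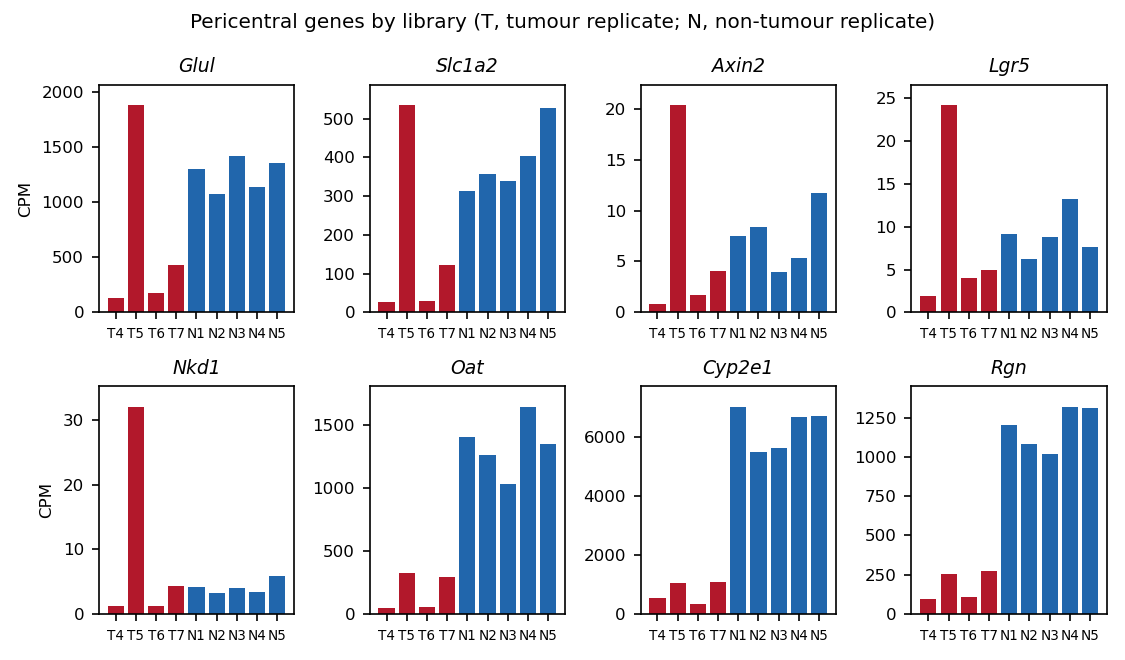
CPM of 8 pericentral genes in each of the 9 libraries (bars), tumour replicates 4 to 7 (T4 to T7, red) left of non-tumour replicates 1 to 5 (N1 to N5, blue). Tumour replicate 5 is the highest library for Glul, Slc1a2, Axin2, Lgr5 and Nkd1 but is below every non-tumour library for Oat, Cyp2e1 and Rgn.

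Genes of bile acid synthesis were lower in tumours along both routes: of 15 tested genes 13 fell and 1 rose (median -1.82). Cyp7a1, the rate-limiting enzyme of the classic route, was at 32.7, 13.4, 10.3 and 75.9 CPM in tumours and 444, 60.8, 497, 162 and 828 CPM in non-tumour liver, where it varied widely and replicate 2 overlapped the highest tumour (log2 fold change -3.48 ± 0.66, adjusted p = 0.000179; -4.48 without non-tumour replicates 2 and 4). Cyp8b1, which makes cholic acid, was at 21.9, 4.68, 4.86 and 14.9 CPM in tumours and a steadier 206, 221, 293, 324 and 249 CPM in non-tumour liver (log2 fold change -4.61 ± 0.57, adjusted p = 1.18e-06). Cyp27a1, of the alternative route, was at 68.3, 75.04, 46.6 and 113 CPM in tumours and 407, 492, 387, 466 and 417 CPM in non-tumour liver (log2 fold change -2.57 ± 0.24, adjusted p = 4.45e-08). Neither Cyp8b1 nor Cyp27a1 overlapped between groups. The gene that rose was Cyp39a1, which hydroxylates 24-hydroxycholesterol, at 95.2, 74.4, 76.4 and 68.8 CPM in tumours and 15.1, 26.5, 13.96, 10.3 and 7.94 CPM in non-tumour liver, without overlap (log2 fold change 2.44 ± 0.38, adjusted p = 2.04e-05).

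Of 14 transporters of bile acids and organic anions, 8 fell and 3 rose (median -1.01; 8 and 1 without non-tumour replicates 2 and 4 or without tumour replicate 5). Slc10a1, the sodium-dependent bile acid uptake carrier NTCP, was at 27.8, 65.4, 19.7 and 84.6 CPM in tumours and 249.7, 379, 303, 398 and 284 CPM in non-tumour liver (log2 fold change -2.89 ± 0.47, adjusted p = 3.17e-05). Slco1b2, an organic anion uptake carrier, was at 151, 544, 136 and 417 CPM in tumours and 1768, 1979, 1745, 2199 and 1736 CPM in non-tumour liver (log2 fold change -2.84 ± 0.42, adjusted p = 1.07e-05). Both uptake carriers separated the groups, with tumour replicates 4 and 6 the lowest. Abcb11, the bile salt export pump, was less reduced, at 237, 409, 223 and 449.6 CPM in tumours and 614, 958, 716, 881 and 729 CPM in non-tumour liver (log2 fold change -1.29 ± 0.30, adjusted p = 0.00112). Abcb1a, a multidrug efflux pump, rose, at 55.5, 72.998, 24.6 and 26.3 CPM in tumours and 15.9, 3.19, 18.6, 3.07 and 10.3 CPM in non-tumour liver (log2 fold change 2.18 ± 0.44, adjusted p = 0.000371; 1.41 without non-tumour replicates 2 and 4). The other 2 called higher were Abcc2 and Abcc4, at log2 fold changes of 0.41 and 1.34. Abcc2 lost its call in 8 of the 9 fits that each left out 1 library (0.37 to 0.45), with no filter (adjusted p = 0.0595) and after rescaling (adjusted p = 0.0532). Abcc4 lost its call in 5 of the 9 fits (0.95 to 1.41). Without non-tumour replicates 2 and 4 neither was called (0.31 and 0.50, adjusted p = 0.208 and 0.443).

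Genes of drug metabolism fell broadly. Of 25 tested cytochrome P450 genes 18 fell and 1, Cyp2d26, rose (median -2.14), and of 22 phase II conjugation genes 18 fell and 1, Tpmt, rose (median -1.58). Cyp2c54 was at 9.77, 2.30, 3.97 and 27.9 CPM in tumours and 111, 180.2, 189.9, 310.5 and 269.9 CPM in non-tumour liver (log2 fold change -4.57 ± 0.63, adjusted p = 4.3e-06; -5.16 without tumour replicate 7). Cyp2c50 was at 40.4, 14.4, 23.2 and 154 CPM in tumours and 693, 724, 861, 1057 and 831 CPM in non-tumour liver (log2 fold change -4.39 ± 0.57, adjusted p = 2.01e-06; -5.05 without tumour replicate 7). In both, tumour replicate 7 was the highest tumour and still lay below every non-tumour library. Sult2a8 and Ces3b are in neither list and were named for the size of their falls. Sult2a8, a bile acid sulphotransferase, was at 36.5, 11.3, 12.2 and 80.9 CPM in tumours and 261, 994, 418, 965 and 633 CPM in non-tumour liver (log2 fold change -4.45 ± 0.64, adjusted p = 7.32e-06). Ces3b, a carboxylesterase, was at 5.77, 3.16, 1.66 and 19.8 CPM in tumours and 81.3, 538, 97.5, 447 and 268 CPM in non-tumour liver (log2 fold change -5.14 ± 0.75, adjusted p = 8.79e-06; -4.37 without non-tumour replicates 2 and 4). These gene families hold near-identical copies, as do the major urinary protein genes, and how reads were split among the copies makes the values of single members uncertain.

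Ethanol and acetaldehyde oxidation genes fell in 10 of 13 cases, and 1, Acss1, rose (median -1.48), a call lost in 4 of the 9 fits that each left out 1 library (0.63 to 0.89) and without non-tumour replicates 2 and 4 (0.72). Acss1 was under 1 CPM in every non-tumour library. Adh1, the main hepatic alcohol dehydrogenase, was at 1057, 1122, 912 and 1152 CPM in tumours and 1797, 1393, 1931, 1555 and 1575 CPM in non-tumour liver (log2 fold change -0.63 ± 0.16, adjusted p = 0.00239). Aldh2, the mitochondrial acetaldehyde dehydrogenase, was at 661, 722, 777 and 788 CPM in tumours and 1194, 1125, 1241, 1249 and 1119 CPM in non-tumour liver (log2 fold change -0.69 ± 0.12, adjusted p = 9.15e-05). Both separated the groups. Adh4 was at 18.1, 21.3, 10.3 and 37.96 CPM in tumours and 128, 139, 124, 189.9 and 143 CPM in non-tumour liver (log2 fold change -2.79 ± 0.33, adjusted p = 7.89e-07). Aldh1a1, a cytosolic retinaldehyde dehydrogenase, was at 212, 142, 263 and 434 CPM in tumours and 2266, 1147, 2130.0, 1573 and 1685 CPM in non-tumour liver (log2 fold change -2.82 ± 0.32, adjusted p = 3.68e-07). Cat, catalase, was at 1198, 743, 1009.8 and 1239 CPM in tumours and 2458, 3139, 2810.4, 3482 and 2759 CPM in non-tumour liver (log2 fold change -1.50 ± 0.21, adjusted p = 3.76e-06). For none of these 5 genes did the groups overlap.

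Male-biased liver genes, which depend on the male pattern of growth hormone release, fell in 14 of 18 cases, and none rose (median -2.39; 11 fell, median -1.85, without non-tumour replicates 2 and 4). They also divided the non-tumour libraries. Mup7, a major urinary protein (chromosome 4, 60066469 to 60070475), is not a member of that list and was named for the size of its fall. It was at 36.9, 7.93, 6.41 and 37.5 CPM in tumours and 74.7, 8693, 376, 7063 and 1175 CPM in non-tumour liver. Replicates 2 and 4 were far above the other 3, and replicate 1, the lowest, still lay above the highest tumour (log2 fold change -6.03 ± 1.29, adjusted p = 0.000596; -4.19, adjusted p = 0.0153, without replicates 2 and 4, and -7.02 without replicate 1). Elovl3, a fatty acid elongase, was at 5.59, 1.61, 2.74 and 18.7 CPM in tumours and 112, 583, 76.8, 402 and 46.8 CPM in non-tumour liver, with the same 2 libraries highest (log2 fold change -4.73 ± 0.78, adjusted p = 3.77e-05; -3.65 without non-tumour replicates 2 and 4). Mup14, Mup19 and Mup12, near-identical to Mup7 in part, were also among the 12 largest falls, at log2 fold changes of -4.63, -4.39 and -4.38 (-3.99, -3.72 and -2.95 without non-tumour replicates 2 and 4; the last not called by limma-voom, adjusted p = 0.0683), with Elovl3, Cyp8b1, Cyp7b1 (-4.60; -3.78 without these 2 libraries), Thrsp and the P450, sulphotransferase and esterase genes given above. Cyp4a12a, a fatty acid hydroxylase, did not divide them, at 9.33, 5.39, 14.4 and 43.6 CPM in tumours and 293, 306, 226, 353 and 194 CPM in non-tumour liver (log2 fold change -4.21 ± 0.68, adjusted p = 2.63e-05). Of 7 tested female-biased genes 3 rose and none fell (median 1.03; 2 rose and 1 fell without non-tumour replicates 2 and 4), among them Cyp2b9, at 281, 357, 374 and 378 CPM in tumours and 59.7, 0.976, 69.02, 14.2 and 38.3 CPM in non-tumour liver, lowest in replicates 2 and 4 (log2 fold change 3.98 ± 0.91, adjusted p = 0.00114; 2.65 without them).

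In the growth hormone and IGF axis, of 16 tested genes 5 fell and 2 rose (median -0.32). Ghr, the growth hormone receptor, was at 147, 135, 103 and 206 CPM in tumours and 592, 868, 553, 845 and 728 CPM in non-tumour liver (log2 fold change -2.29 ± 0.22, adjusted p = 5.82e-08). Igf1, its main endocrine target (chromosome 10, 87858265 to 87937042), was at 49.01, 51.96, 44.2 and 173 CPM in tumours and 798, 945, 703, 722 and 1127 CPM in non-tumour liver, with tumour replicate 7 above the other tumours and far below non-tumour liver (log2 fold change -3.65 ± 0.48, adjusted p = 2.21e-06). The binding protein Igfbp1, which restrains IGF, went the other way, at 1940.0, 2673, 1559 and 1416 CPM in tumours and 97.5, 198, 223, 134 and 69.02 CPM in non-tumour liver (log2 fold change 3.79 ± 0.51, adjusted p = 3.26e-06). None of these 3 genes overlapped between groups.

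Genes of methionine and folate metabolism fell in 15 of 20 cases, and 3 rose (median -1.40; 13 and 1 without non-tumour replicates 2 and 4). Mat1a, the hepatic S-adenosylmethionine synthetase, was at 947, 576, 566 and 965 CPM in tumours and 4907, 2485, 3420.3, 2696 and 2898 CPM in non-tumour liver (log2 fold change -2.11 ± 0.24, adjusted p = 4.06e-07). Bhmt, which remethylates homocysteine with betaine, was at 642, 140.3, 194 and 1142 CPM in tumours and 7136, 4473, 5055, 5186 and 3357 CPM in non-tumour liver (log2 fold change -3.70 ± 0.48, adjusted p = 2.15e-06). Nnmt, which methylates nicotinamide, was at 2.63, 1.29, 6.98 and 16.5 CPM in tumours and 147, 129.7, 72.2, 139.6 and 105 CPM in non-tumour liver (log2 fold change -4.31 ± 0.42, adjusted p = 6.52e-08). In the 3 genes the groups were far apart, with tumour replicate 7 the nearest to non-tumour liver. Genes of serine synthesis went the other way. Phgdh, its entry enzyme, was at 15.3, 15.3, 28.9 and 5.60 CPM in tumours and 0, 0.558, 0.445, 0.562 and 1.38 CPM in non-tumour liver (log2 fold change 3.31 ± 0.40, adjusted p = 8.75e-07). Psat1, the next enzyme, was at 37.5, 41.3, 78.1 and 43.9 CPM in tumours and 2.41, 0.558, 3.86, 0.843 and 3.62 CPM in non-tumour liver (log2 fold change 4.06 ± 0.56, adjusted p = 4.04e-06).

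Phgdh is in the methionine and folate list and also in the list for the unfolded protein and integrated stress responses. Psat1 is in the stress list but not in that of methionine and folate. Of 23 tested genes of the stress list 12 rose and none fell (median 0.82). Trib3, a pseudokinase induced by ATF4, was at 79.3, 58.6, 57.7 and 49.2 CPM in tumours and 4.65, 6.14, 9.65, 3.51 and 8.46 CPM in non-tumour liver (log2 fold change 3.10 ± 0.34, adjusted p = 2.55e-07). Ddit3, the stress factor CHOP, was at 24.3, 13.4, 15.5 and 13.7 CPM in tumours and 6.73, 6.83, 5.79, 12.4 and 8.46 CPM in non-tumour liver (log2 fold change 0.97 ± 0.26, adjusted p = 0.00361). Sesn2 was at 26.6, 28.6, 30.03 and 30.2 CPM in tumours and 12.8, 8.93, 13.5, 11.4 and 14.3 CPM in non-tumour liver (log2 fold change 1.19 ± 0.18, adjusted p = 9.57e-06). The 3 genes had no overlap between groups. Asns, asparagine synthetase, was at 17.1, 25.8, 73.9 and 18.7 CPM in tumours and 6.41, 20.4, 13.1, 24.04 and 6.90 CPM in non-tumour liver and was not called (adjusted p = 0.0677), but was called without tumour replicate 4 or non-tumour replicate 4 (1.34 each, adjusted p = 0.0466 and 0.0385), or without non-tumour replicates 2 and 4 (1.63). The letters TGATGNAA of ATF4-type sites (both strands) were in the promoters of 1 of 12 called and 5 of 10 other members of this list, against 3.97% of all RefSeq promoters.

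Genes of the respiratory chain and of fatty acid oxidation were mostly lower in tumours. All 23 tested nuclear-encoded subunits of the respiratory chain were called lower, and for all 23 the tumours lay below every non-tumour library (median -0.90, range -1.14 to -0.60). Sdhb, of complex II, was at 86.7, 68.7, 72.2 and 61.9 CPM in tumours and 165, 153, 167, 175 and 122 CPM in non-tumour liver (log2 fold change -1.10 ± 0.13, adjusted p = 9.7e-07). Ndufs3, of complex I, showed the smallest fall, at 54.6, 51.8, 47.5 and 51.7 CPM in tumours and 74.2, 76.9, 77.3, 82.1 and 80.9 CPM in non-tumour liver (log2 fold change -0.60 ± 0.10, adjusted p = 3.85e-05). Atp5a1, of ATP synthase, was at 557, 479, 424 and 534 CPM in tumours and 1063, 926, 1057, 968 and 828 CPM in non-tumour liver (log2 fold change -0.96 ± 0.14, adjusted p = 5.82e-06). Median-ratio rescaling left all 23 called (median -0.93). Fatty acid oxidation genes fell in 21 of 28 cases, and 1 rose (median -1.07). Cpt1a, which admits fatty acids to mitochondria, was at 919.5, 666, 512 and 454 CPM in tumours and 795, 443, 647, 459 and 608 CPM in non-tumour liver (log2 fold change 0.09 ± 0.22, adjusted p = 0.767). The gene that rose was Bdh1, a ketone body dehydrogenase (log2 fold change 0.78 ± 0.14, adjusted p = 0.000105).

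Genes of fatty acid and triglyceride synthesis showed 8 falls and 2 rises among 23 tested (median -0.57). Thrsp, a lipogenic regulator, was at 8.88, 3.39, 2.87 and 48.5 CPM in tumours and 395, 354, 334, 206 and 116 CPM in non-tumour liver (log2 fold change -4.76 ± 0.55, adjusted p = 4.69e-07; -5.55 without tumour replicate 7). Fasn, fatty acid synthase, was at 409.5, 555, 524 and 698 CPM in tumours and 598, 680.1, 903, 706 and 483 CPM in non-tumour liver, which overlapped (adjusted p = 0.505). Scd1 and Scd2 are the desaturase genes of the list. Scd1, the main hepatic desaturase, was at 9677, 7549, 6636 and 8505 CPM in tumours and 31136, 9345, 21546, 11143 and 8698 CPM in non-tumour liver (adjusted p = 0.107). Scd2, a desaturase of brain and fetal liver, was at 189, 309, 314 and 605 CPM in tumours and 32.5, 7.89, 42.98, 52.7 and 97.2 CPM in non-tumour liver (log2 fold change 3.14 ± 0.51, adjusted p = 3.17e-05). Of 16 lipid droplet genes 7 fell and 3 rose (median -0.40; 8 fell, median -1.52, without non-tumour replicates 2 and 4). Fitm1, a droplet assembly protein, was at 1.32, 1.61, 5.10 and 7.16 CPM in tumours and 62.4, 27.1, 55.8, 56.8 and 39.3 CPM in non-tumour liver (log2 fold change -3.50 ± 0.41, adjusted p = 5.14e-07). Plin2, the main droplet coat protein of hepatocytes, was at 714, 595, 675 and 505 CPM in tumours and 486, 308, 739, 388 and 358 CPM in non-tumour liver (adjusted p = 0.0831; 0.70, adjusted p = 0.0131, without non-tumour replicate 3).

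The result for cholesterol synthesis genes depended on the non-tumour libraries used. Of 26 tested genes 4 rose and 8 fell (median -0.55), and the summed level of the list was 2033 to 3602 CPM in tumours and 1968 to 5234 CPM in non-tumour liver, highest in non-tumour replicates 2 and 4. Without these 2 libraries 5 rose and 2 fell (median 0.19), and the same list had a median of 0.86 in WT mice on alcohol and of 0.98 in labelled mice on HFD. Hmgcs1, an early enzyme that responds to SREBP2, was at 71.2, 128, 125 and 316 CPM in tumours and 154, 660.3, 168, 557 and 249.7 CPM in non-tumour liver (log2 fold change -1.11 ± 0.42, adjusted p = 0.038). In 5 of the 9 fits that each left out 1 library its call was lost, with values of -1.07 to -0.80, and without non-tumour replicates 2 and 4 it was -0.43 (adjusted p = 0.435).

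Genes of glucose metabolism showed 8 falls and 4 rises among 26 tested (median -0.35; 8 and 1 without non-tumour replicates 2 and 4). Fbp1, of gluconeogenesis, was at 242, 352, 228 and 453 CPM in tumours and 1355, 819, 1199.6, 921 and 966 CPM in non-tumour liver (log2 fold change -1.75 ± 0.21, adjusted p = 5.85e-07). Pck2, the mitochondrial phosphoenolpyruvate carboxykinase, rose, at 24.8, 18.6, 27.2 and 14.3 CPM in tumours and 5.13, 2.23, 4.75, 1.69 and 2.42 CPM in non-tumour liver (log2 fold change 2.43 ± 0.27, adjusted p = 3.8e-07). Both separated the groups. Of 26 NRF2-dependent antioxidant genes 6 rose and 5 fell, shares near the 22.2% and 19.2% of all tested genes (median 0.26; 3 and 7, median -0.14, without non-tumour replicates 2 and 4). Srxn1, sulfiredoxin, was at 230.2, 151, 533 and 324 CPM in tumours and 84.7, 31.4, 177, 47.1 and 158 CPM in non-tumour liver (log2 fold change 1.76 ± 0.43, adjusted p = 0.00217; 1.06 without non-tumour replicates 2 and 4). Nqo1, a quinone reductase and standard NRF2 target, was at 39.5, 3.55, 82.6 and 51.03 CPM in tumours and 23.7, 3.77, 25.7, 7.59 and 33.99 CPM in non-tumour liver. Tumour replicate 5 lay at the bottom of all 9 libraries, and Nqo1 was not called with it (adjusted p = 0.268) but was called without it (1.84, adjusted p = 0.0137). Without non-tumour replicates 2 and 4 its log2 difference was 0.07 (adjusted p = 0.947).

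Of 15 tested IL-17-responsive genes 2 rose and 3 fell (median 0.30; 2 and 5, median -0.15, without non-tumour replicates 2 and 4). Among all tested genes 22.2% rose and 19.2% fell, so these counts do not set the list apart. Lcn2, lipocalin 2, an iron-siderophore binder induced by IL-17 and IL-6, was at 892, 395, 1765 and 358 CPM in tumours and 113, 3.35, 127, 10.8 and 202 CPM in non-tumour liver. Every tumour lay above every non-tumour library, and non-tumour replicates 2 and 4 were lowest (log2 fold change 3.99 ± 0.94, adjusted p = 0.00145; 2.26 without them). Cxcl1, a neutrophil chemokine, was at 50.8, 33.4, 78.1 and 24.3 CPM in tumours and 10.1, 5.16, 16.3, 3.94 and 19.8 CPM in non-tumour liver, again without overlap (log2 fold change 2.06 ± 0.47, adjusted p = 0.00117; 1.45 without non-tumour replicates 2 and 4). Serum amyloid A genes fell: Saa1 was at 22.9, 6.78, 26.7 and 34.9 CPM in tumours and 120.3, 24.1, 159, 36.6 and 162 CPM in non-tumour liver (log2 fold change -1.92 ± 0.53, adjusted p = 0.00524; -2.82 without non-tumour replicates 2 and 4), Saa3 was at 4.28, 1.13, 1.37 and 5.60 CPM in tumours and 14.8, 8.51, 33.3, 11.1 and 17.3 CPM in non-tumour liver (log2 fold change -2.16 ± 0.45, adjusted p = 0.000502). Saa2 lost its call in 4 of the 9 fits that left out 1 library (-1.76; -2.91 without non-tumour replicates 2 and 4). Saa1 and Saa2 are near-identical copies. Ccl2, Cxcl9 and Cxcl10 were not called (adjusted p = 0.508, 0.265 and 0.107), though Cxcl10 was without non-tumour replicate 3 (1.21, adjusted p = 0.0392). Il1b, Mmp13, Nfkbiz, Zc3h12a and Steap4 were not called either, at log2 differences of 0.10, 1.15, 0.56, 0.30 and 0.01, although Mmp13 was called without non-tumour replicate 3 (1.70, adjusted p = 0.0325) and Nfkbiz without non-tumour replicate 5 (0.71, adjusted p = 0.0308). The neutrophil genes S100a8 and S100a9 were at 0.161 to 1.32 CPM in tumours and 0 to 4.83 CPM in non-tumour liver, and were called lower without non-tumour replicates 2 and 4 (-1.17 and -1.50, adjusted p = 0.0353 and 0.0119) or, for S100a9, without replicate 2 alone (-1.19, adjusted p = 0.0321). Within the acute phase list, 8 of 24 rose and 7 fell (median 0.19). Serpina3n, a protease inhibitor, was at 1698, 1564, 1439 and 1038 CPM in tumours and 294, 225, 317, 246 and 399.8 CPM in non-tumour liver (log2 fold change 2.28 ± 0.32, adjusted p = 6.06e-06). Crp was at 82.2, 91.8, 139 and 174 CPM in tumours and 246, 333, 265, 299.6 and 373 CPM in non-tumour liver (log2 fold change -1.36 ± 0.27, adjusted p = 0.000238).

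Iron genes gave 4 rises and 6 falls of 16 (median -0.40). Trf, transferrin, was at 37559.8, 52553, 45973 and 39404 CPM in tumours and 17718, 13829, 18157, 13782 and 22761 CPM in non-tumour liver (log2 fold change 1.36 ± 0.28, adjusted p = 0.000451; 0.056 with no filter). Slc40a1, the iron exporter ferroportin, was at 97.03, 101, 108 and 103 CPM in tumours and 284, 155, 306, 182 and 294 CPM in non-tumour liver (log2 fold change -1.19 ± 0.24, adjusted p = 0.000366). Hamp, hepcidin, was at 33.1, 90.4, 4.61 and 19.6 CPM in tumours and 73.6, 219, 25.1, 130.3 and 28.99 CPM in non-tumour liver, which overlapped (adjusted p = 0.154). Of 27 complement and coagulation genes 12 fell and 3 rose (median -0.18).

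Kupffer cell genes were lower in tumours than in 3 of the 5 non-tumour libraries. Of 16 tested genes 7 fell and none rose (median -0.67), against 14 that fell without non-tumour replicates 2 and 4 (median -1.55). Clec4f, a lectin specific to Kupffer cells in mice, was at 27.3, 59.4, 47.98 and 51.03 CPM in tumours and 209, 73.9, 261, 69.3 and 239 CPM in non-tumour liver (log2 fold change -1.69 ± 0.36, adjusted p = 0.000589; -2.37 without non-tumour replicates 2 and 4). Timd4, a phosphatidylserine receptor of resident macrophages, was at 0.164, 0.161, 0.499 and 2.18 CPM in tumours and 13.3, 3.91, 9.80, 4.50 and 6.90 CPM in non-tumour liver (log2 fold change -2.33 ± 0.37, adjusted p = 2.11e-05). Cd163, the haemoglobin scavenger receptor, was at 2.14, 1.78, 1.25 and 5.29 CPM in tumours and 32.6, 30.96, 39.9, 16.6 and 18.98 CPM in non-tumour liver (log2 fold change -3.04 ± 0.37, adjusted p = 1.01e-06). These 3 did not overlap between groups. Marco, a scavenger receptor, was at 2.30, 2.42, 0.997 and 5.29 CPM in tumours and 53.1, 5.58, 75.3, 4.08 and 22.3 CPM in non-tumour liver, with replicates 2 and 4 at the level of tumour replicate 7 (log2 fold change -2.54 ± 0.66, adjusted p = 0.00333; -3.73 without them; not called by limma-voom, adjusted p = 0.0567). Members that other macrophages also express were called once replicates 2 and 4 were left out: Adgre1, encoding F4/80, was at 37.7, 42.3, 42.1 and 24.9 CPM in tumours and 93.3, 22.04, 105, 18.4 and 69.9 CPM in non-tumour liver (adjusted p = 0.407; -1.27, adjusted p = 0.00384, without them), and C1qa had an adjusted p of 0.573 (-1.04, adjusted p = 0.00954, without them). The summed level of the list was 671 to 814 CPM in tumours and 628 to 2423 CPM in non-tumour liver.

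The share that rose among genes of monocyte-derived and lipid-associated macrophages was near the 22.2% of all tested genes. Of 17 such genes 4 rose and none fell (median 0.78; 1 rose and 1 fell, median -0.29, without non-tumour replicates 2 and 4). The 4 were Cx3cr1, Spp1, Cd9 and Fabp5, of which Spp1 is also in the tumour marker list, and without these 2 libraries only Cd9 was still called higher (1.27; Cx3cr1 0.86, against 1.52 with them), while Fabp5 also lost its call in 6 of the 9 fits that left out 1 library. Cd9, a tetraspanin, was at 30.9, 75.8, 94.7 and 101 CPM in tumours and 24.7, 17.3, 31.8, 12.1 and 27.8 CPM in non-tumour liver, where replicate 3 reached the lowest tumour (log2 fold change 1.64 ± 0.34, adjusted p = 0.000432). None of 8 MHC class II genes was called (median 0.64; -0.19 without non-tumour replicates 2 and 4), and Cd74, the invariant chain, was at 187, 108, 186 and 218 CPM in tumours and 169, 41.3, 224, 40.5 and 111 CPM in non-tumour liver (log2 difference 0.85, adjusted p = 0.192; 0.07 without those libraries). A smaller share of interferon-stimulated genes rose than of all tested genes (22.2%). These genes rose in 4 of 32 cases and fell in none (median 0.26; 2 rose and 1 fell, median -0.15, without these libraries). They included Iigp1, at 1085, 761, 783 and 766 CPM in tumours and 293, 278, 415, 383 and 666 CPM in non-tumour liver (log2 fold change 1.12 ± 0.28, adjusted p = 0.00258). T and NK cell genes were at low levels. Their list summed to 8.72 to 19.6 CPM in tumours and 7.11 to 18.6 CPM in non-tumour liver. Of its 9 tested genes 1 (Prf1) was called, which was not called without non-tumour replicates 2 and 4. For B and plasma cells 0 of 4 tested genes were called, with a largest log2 difference of 2.12. Their list summed to 31.3 to 201 CPM in tumours and 11.2 to 29.3 CPM in non-tumour liver, without overlap. The medians of these lists were 0.18 and 0.22, and -0.04 and -0.11 without those 2 libraries.

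**Figure D4:**
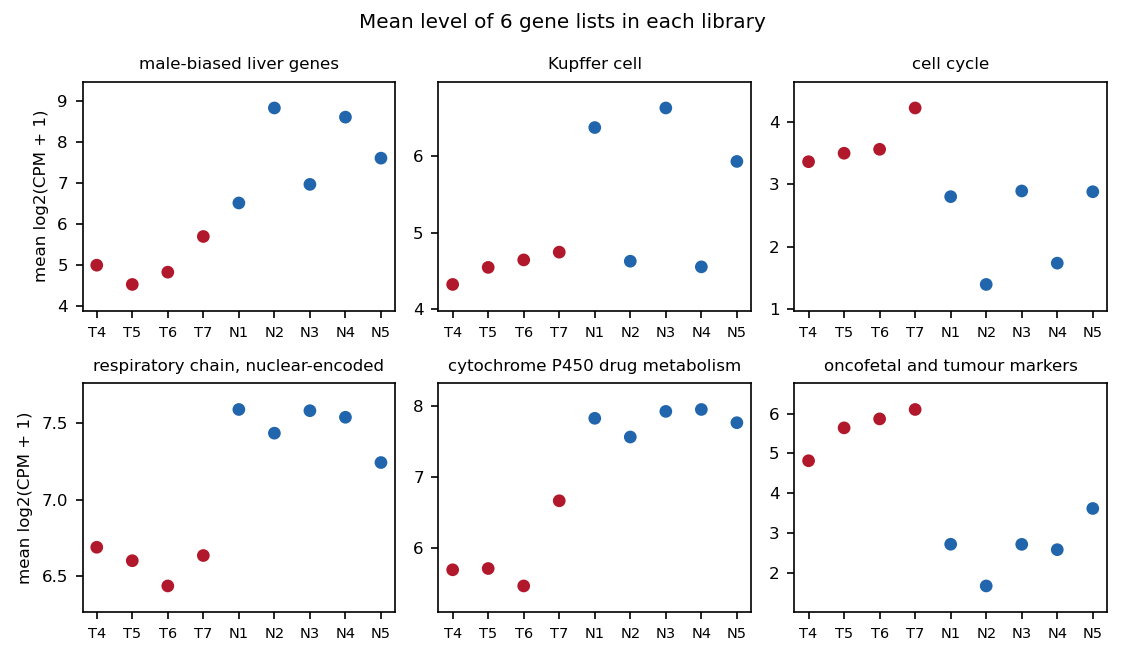
Mean log2(CPM + 1) of 6 gene lists (vertical axis) in tumour replicates 4 to 7 (T4 to T7, red, left) and non-tumour replicates 1 to 5 (N1 to N5, blue, right). Non-tumour replicates 2 and 4 have the highest male-biased means (8.83 and 8.61) and the lowest Kupffer cell means (4.62 and 4.55) of their group, and lie with the other non-tumour libraries for P450 and respiratory chain genes.

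Stellate cell and matrix genes rose in 13 of 26 cases and fell in 5 (median 0.77; 6 and 5, median 0.34, without non-tumour replicates 2 and 4). Acta2, smooth muscle actin, the marker of activated stellate cells, was at 22.9, 22.4, 32.5 and 11.8 CPM in tumours and 3.21, 1.26, 2.52, 0.984 and 1.04 CPM in non-tumour liver (log2 fold change 3.05 ± 0.42, adjusted p = 3.51e-06). Col1a1, the main fibrillar collagen chain, was at 57.6, 35.02, 97.3 and 109.5 CPM in tumours and 24.2, 2.93, 15.9, 1.12 and 16.4 CPM in non-tumour liver (log2 fold change 2.93 ± 0.73, adjusted p = 0.00234; 1.83 without non-tumour replicates 2 and 4). Neither overlapped between groups. Lrat, which stores retinol in quiescent stellate cells, was at 13.98, 13.7, 17.1 and 36.1 CPM in tumours and 82.9, 34.03, 106, 31.6 and 48.3 CPM in non-tumour liver (log2 fold change -1.49 ± 0.38, adjusted p = 0.00294). Smooth muscle and mesothelial genes of neighbouring tissue (Krt19, Myh11 and Actg2) rose in 3 of 5 tested cases, and their summed level was 20.7 to 28.6 CPM in tumours and 6.00 to 14.8 CPM in non-tumour liver. Their part in the Acta2 result was not tested.

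Cholangiocyte and progenitor genes rose in 13 of 14 cases (median 1.42), against 10 of 14 without non-tumour replicates 2 and 4 (median 1.34). Prom1, Spp1, Cd24a, Sox9 and Epcam are members of both this list and the tumour marker list, so the counts of these lists overlap. Krt23, a keratin of progenitor cells, was at 49.2, 20.01, 13.1 and 27.4 CPM in tumours and 0.641, 0.976, 0.891, 2.53 and 0.345 CPM in non-tumour liver (log2 fold change 3.70 ± 0.36, adjusted p = 7.95e-08). Sox9, a transcription factor of biliary cells, was at 8.06, 11.3, 18.6 and 11.8 CPM in tumours and 1.76, 4.88, 2.82, 2.81 and 3.97 CPM in non-tumour liver (log2 fold change 1.65 ± 0.24, adjusted p = 6.82e-06). Krt19, the biliary keratin, was at 2.30, 1.61, 2.12 and 10.3 CPM in tumours and 0.160, 0.558, 0.891, 0.562 and 0.345 CPM in non-tumour liver. It was under 1 CPM in every non-tumour library and entered only through the tumours, so that its count among the rises, here and in the list of neighbouring tissue, rests on that entry. The groups did not overlap for Krt23 or Sox9. Of 20 endothelial genes 1 rose and 2 fell (median 0.14): Cd34, a marker of capillary endothelium, was at 7.57, 8.39, 13.96 and 10.9 CPM in tumours and 2.73, 0.558, 3.56, 1.12 and 1.73 CPM in non-tumour liver (log2 fold change 2.00 ± 0.37, adjusted p = 0.000127). Stab2, of sinusoidal endothelium, was at 142, 155, 124 and 173 CPM in tumours and 169.8, 119, 195, 129 and 180.3 CPM in non-tumour liver (adjusted p = 0.768).

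The tumour contrast was then set against that of WT mice on alcohol and of labelled mice on HFD, which share no library with it. In WT mice on alcohol 4797 of the 12844 genes were called (37.3%), of which 3929 were also called here, all in the same direction: 73.9% of the calls here and 81.9% of those in WT. In labelled mice on HFD 5396 were called (42%), and the 4059 in common again had the same direction, 76.3% of the calls here and 75.2% of those on HFD. The difference between contrasts was tested itself, as an interaction. No gene passed for the genotype label (0%; 311 at an unadjusted p under 0.05, smallest adjusted p 0.372) and none for the diet (0%; 599, smallest adjusted p 0.995), and limma-voom on the recovered counts also called 0 and 0 (277 and 545 at an unadjusted p under 0.05). A p that misses the threshold does not show that the contrasts are alike.

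Gene by gene, the log2 fold changes lay side by side as follows. Gpc3 had 5.24 here, 4.63 in WT mice on alcohol and 3.78 in labelled mice on HFD, and Afp had 5.10, 5.07 and 4.48. Among genes that fell, Cyp2e1 had -3.20 here, -4.56 in WT mice on alcohol and -5.13 in labelled mice on HFD, and Igf1 had -3.65, -3.72 and -3.64. List medians that lay apart included those of cholesterol synthesis, given above, of the P450 genes and of the pericentral genes. The P450 median was -2.14 here, -3.26 in WT mice on alcohol and -3.01 in labelled mice on HFD. In the same order, lipid droplet genes had -0.40, -1.25 and -1.07, Kupffer cell genes -0.67, -1.57 and -0.88, and periportal genes -1.46, -1.24 and -0.73. Other lists that lay apart are not given. The pericentral median was -0.78 here, -1.82 in WT mice on alcohol and -1.67 in labelled mice on HFD. Hmgcs1 had -1.11 here, 0.25 in WT and 0.34 on HFD, and Glul had -1.76, -3.32 and -3.77, without either difference passing. Lars2, mitochondrial leucyl-tRNA synthetase, was chosen after its values were seen: it was at 1418, 185, 105 and 343 CPM in tumours and 31.3, 23.9, 21.97, 28.1 and 32.1 CPM in non-tumour liver (log2 fold change 3.48 ± 0.82, adjusted p = 0.00148; 2.75 without tumour replicate 4), with -1.23 in WT mice on alcohol and 3.21 in labelled mice on HFD. Il17ra itself had 0.97 here, 0.33 in WT mice on alcohol and 1.31 in labelled mice on HFD.

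**Figure D5:**
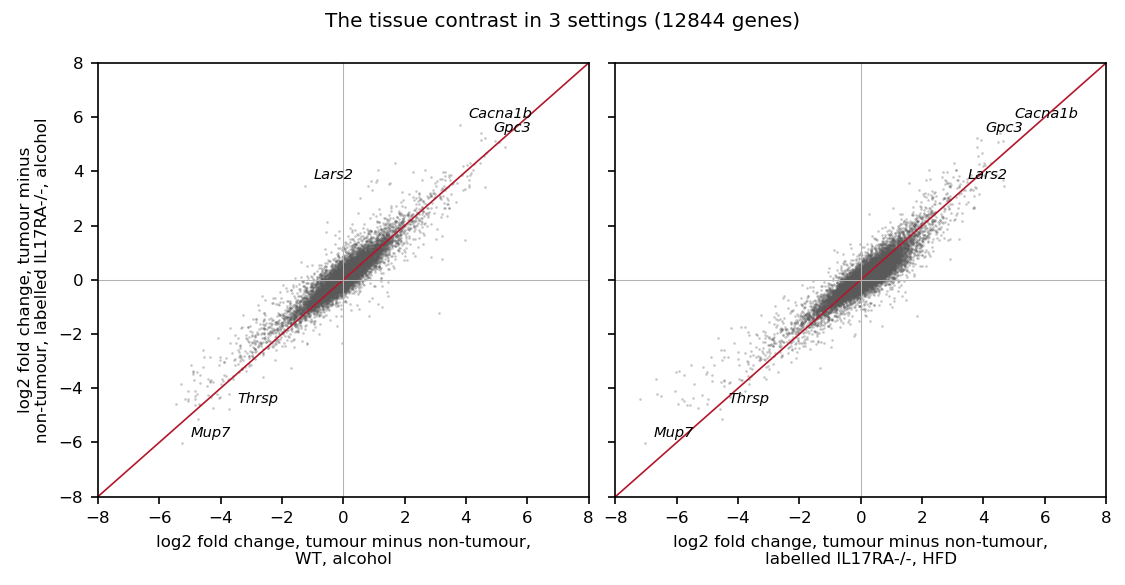
Log2 fold change of each of 12844 genes (points) between tumour and non-tumour liver on alcohol labelled IL17RA-/- (vertical axes), against the same contrast in WT mice on alcohol (left, horizontal axis) and in labelled mice on HFD (right, horizontal axis); the red line marks equal values. Most genes lie along the line, with Gpc3 and Cacna1b at the top, Mup7 at the bottom, and Lars2 away from the line on the left panel only.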

How the data were processed

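RNA was measured as polyA RNA-seq with a stranded kit, per the labels' protocols. The authors deposited CPM values (counts per 1000000) per gene ID, made with STAR 2.5.1a, RSEM 1.3.0 and the build GRCm38, per the submitters' processing notes. The sources used here give neither the annotation nor a filter. Each column summed to 1000000 CPM, and no mitochondrial gene was listed. RSEM gives estimated counts: 84.1% to 85.8% of the values above 0 in the 9 libraries were whole numbers of counts (within 0.002) once divided by the CPM worth of 1 count, which gave the depths. The level of 3 counts covers counting error only. Symbols came from GENCODE M21 (21653 of 22187 IDs matched) and promoters from RefSeq (GRCm38.p6).

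Tests used limma 3.58.1 in R 4.3.3 with a variance trend on log2(CPM + 1), so fold changes of low genes are understated. A pseudocount of 1, 8 group means over all 29 libraries, two-sided tests, Benjamini-Hochberg adjustment over 12844 genes and a threshold of 0.05 were used. The procedure was tested on simulated data. Limma-voom on the recovered counts called 5053 genes. The members and gene lists were chosen with earlier results of these data known. Genes named by rule were the IL-17 receptor list, the 12 largest rises and falls without overlap whose higher group averaged at least 5 CPM and whose symbol is not that of a predicted gene, the 4 largest called changes each way of each list, the first 3 members of a cell type or handling list, and all tested IL-17-responsive, oncofetal and imprinted genes. Some genes that the rule picks are not reported here. Another 34 of the 179 named genes were chosen after their values were seen: Plk1, Pcna, Mcm3, Mcm7, Tyms, Ccnb2, Cdc20, Dusp1, Cebpa, Arg1, Slc1a2, Axin2, Lgr5, Nkd1, Abcb11, Aldh2, Cat, Ddit3, Asns, Ndufs3, Atp5a1, Fasn, Scd1, Crp, Adgre1, C1qa, Cd74, Lars2, Cacna1c, Csn3, Mep1b, Cand2, Csrp3 and Lrtm1. Alternatives changed the pseudocount, filter, scaling, libraries, variance model, block or test.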

Additional observations from a re-analysis of the deposited data

Results flagged for a closer look

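Among 358 groups of values of named genes, 9 held a library that stood apart from the rest of its group by Dixon's ratio. Chance gives about 1 in 20 groups, or 18 here, so the 9 are no more than chance would give. In tumours, replicate 5 was low for Il17rd (2.42 CPM, against 3.73 to 3.99 in the other tumours) and Ccl2 (1.78 CPM, against 3.29 to 3.42) and high for Dusp6 (274 CPM, against 202 to 212). Tumour replicate 7, the shallowest library, was high for Ass1 (1070.0 CPM, against 285 to 355), Igf1 (173 CPM, against 44.2 to 52.0) and Krt19 (10.3 CPM, against 1.61 to 2.30). Tumour replicate 4 was high for Iigp1 (1090 CPM, against 761 to 783). In non-tumour liver, replicate 5 was high for Spink1 (3.62 CPM, against 0.141 to 0.594), and replicate 2 was low for Cacna1c (0 CPM, against 0.422 to 0.518).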

How the results depend on the processing

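The count of 5317 calls was 4276 to 5767 under the pseudocount 0.1 (5272), no filter (5485), the 2 groups fitted alone (4689), median-ratio rescaling (5767, of which 52.3% were higher in tumours, against 53.6%), limma-voom (5053), separate tissue variances (5152) and, chosen after seeing the data, without non-tumour replicates 2 and 4 (4276). Leaving out 1 library gave 4663 to 5358 calls, 2267 to 3015 higher and 2078 to 2466 lower. Genes called higher in tumours numbered 1870 without non-tumour replicates 2 and 4, and 1599 with tumour replicate 5 also left out. In that last setting, also chosen after seeing the data, the calls numbered 3678, below the range given first. Of 142 named genes called, 120 kept their call and side in every setting except the block below, and none changed sign in any setting. Both differences between contrasts called 0 genes in every setting, leave-one-out included. The replicate numbers 4 and 5 occur in both groups, but the labels give no pairing: deviations correlated at 0.087 for number 4 and -0.044 for number 5. A replicate block on them, fitted on the 2 groups alone, gave 1673 calls, 761 higher and 912 lower. In that fit only the libraries numbered 4 and 5 bear on the contrast, since each other number occurs in 1 tissue. Its count thus rests on fewer libraries than the others given here. How much of the fall in calls came from this was not tested. Depth limits genes near 1 CPM, most in tumour replicate 7.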

Other observations

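Groups of genes not described above changed little or rest on few members. Of 18 circadian clock genes 1 rose and 2 fell (median -0.02). Of 6 tested erythroid genes only Alas2, the erythroid haem synthesis enzyme, was called, at 16.3, 24.04, 17.97 and 34.8 CPM in tumours and 78.9, 156, 78.8, 142 and 72.6 CPM in non-tumour liver (log2 fold change -2.12 ± 0.27, adjusted p = 1.99e-06). Hbb-bs, a beta globin chain, was at 167, 192, 132 and 167 CPM in tumours and 250.4, 142, 331, 219 and 159 CPM in non-tumour liver (adjusted p = 0.335). Of 3 tested adipocyte genes 1 fell, Cfd, and the 1 tested pancreatic gene was not called.

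A switch-like pattern was rare. Among tested genes 4 were at 5 CPM or more in every tumour and under 1 CPM in every non-tumour library, and they were chosen by these values. Cacna1c, an L-type calcium channel subunit, was at 12.7, 24.5, 18.6 and 14.003 CPM in tumours and 0.481, 0, 0.445, 0.422 and 0.518 CPM in non-tumour liver. Csn3, a milk casein, was at 5.59, 23.2, 23.1 and 9.34 CPM in tumours and 0.321, 0, 0.297, 0.281 and 0.518 CPM in non-tumour liver. Mep1b, a metalloprotease, and Cand2 were the other 2. The reverse held for 2 genes: Csrp3, a muscle LIM protein, was at 0.822, 0.323, 0.748 and 0.934 CPM in tumours and 10.6, 9.90, 10.5, 13.2 and 16.6 CPM in non-tumour liver, and Lrtm1 was at 0, 0.161, 0 and 0.311 CPM in tumours and 14.1, 13.5, 7.13, 32.2 and 5.69 CPM in non-tumour liver. Values under 1 CPM rest on few counts.

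By chromosome, the share of tested genes that rose ran from 18.2% on chromosome 13 to 29.9% on chromosome 15 (502 genes, median log2 fold change 0.154), against 22.2% overall. In WT mice on alcohol 23.1% of the chromosome 15 genes rose, and in labelled mice on HFD 29.5%. The chromosome was picked as the highest of 20, so this is a description with no test.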
